A study of Homo sapiens with 2 samples.

Results

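The genes described here are 51 protein-coding components of Wnt signalling, among 58884 genes measured in TPC-1 cells. They comprise 19 Wnt ligands, 10 Frizzled receptors, 4 Dickkopf and 4 secreted Frizzled-related proteins (SFRP), and 14 co-receptors, feedback regulators and transcription factors, from LRP5 to NKD1. Members were taken by symbol and not by their values, though earlier results of these data were known when they were chosen. TPC-1 is an established human papillary thyroid carcinoma line. It was transfected either with a control siRNA or with an siRNA that targets XPR1, the phosphate exporter of human cells, and RNA was sequenced from 1 library of each kind. Neither the siRNA sequence nor the hours of treatment were used here, as the labels do not give them. With 1 library per group there is no replicate check and no p-value, and "higher" and "lower" below describe these 2 libraries of 1 cell line.

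Wnt proteins are lipid-modified secreted ligands that bind Frizzled receptors. Together with the co-receptors LRP5 and LRP6 they stop a complex of Axin, APC, GSK3 and casein kinase from marking β-catenin for destruction, and β-catenin then activates genes with the TCF/LEF factors. Other ligands, such as WNT5A, act mainly through Frizzled with ROR or RYK receptors, without β-catenin. AXIN2, LGR5, RNF43, ZNRF3, DKK1, NKD1 and LEF1 are themselves often targets of β-catenin, and most of them damp the signal. In the thyroid, mutation of CTNNB1 is known from poorly differentiated and anaplastic carcinoma.

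Values are TPM, a length-corrected share of all transcripts of a library, so that levels can be compared between genes. About 15780000 and 15150000 counted reads were recovered for the control and the XPR1-siRNA library from the steps in the values. They give 95% Clopper-Pearson intervals, which cover counting error only. XPR1 was 39.2 TPM with control siRNA and 5.31 TPM with XPR1 siRNA, 13.5% of control (11.6% to 15.7%). Of 13 thyroid markers PAX8 was 588 and 409 TPM and FOXE1 11.1 and 13.7 TPM, while NKX2-1, TSHR and SLC5A5 were listed at 0 in both libraries. No leukocyte marker of 10 came to a mean of 1 TPM (summed level 1.04 and 1.13 TPM, with CD3E and MS4A1 at 0). Of 6 endothelial markers 1 did so (summed level of the 6 markers 2.75 and 1.70 TPM, CLDN5 at 0). The 8 fibroblast markers summed to 1.57 and 7.85 TPM, with DCN and FAP at 0, and the 1 among them that reached this mean was COL1A1, at 1.04 and 6.67 TPM. Of 7 epithelial markers 3 reached it and were below control, KRT18 (136 and 94.0 TPM), KRT8 (49.8 and 37.0 TPM) and KRT7 (11.1 and 3.39 TPM, 3.27-fold lower, 2.42 to 4.50). Their list summed to 197 and 136 TPM, with EPCAM at 0. The part of these markers in the results below was not tested. In bulk RNA, fewer cells with a transcript and less transcript per cell cannot be told apart.

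Of the 51 members, 29 had a mean of at least 1 TPM over both libraries, and 12 were listed at 0 in both. Differences are on the log2(TPM + 1) scale, and a gene was counted as higher or lower from 1.5-fold on that scale. By this measure 14 of the 29 were higher in the XPR1-siRNA library, 3 were lower and 12 lay between. The higher members made up 48.3% of the 29, against 20.7% of 11698 protein-coding genes at the same level, and the lower members 10.3% against 11.1%. The median difference was 0.53, against 0.10 for those protein-coding genes. At 2-fold on the log2(TPM + 1) scale, 5 members were higher (background 8.75%) and 2 lower (background 4.57%). WNT2B, FZD5 and TCF7L1 passed 2-fold by the plain TPM ratio but not on that scale (0.99, 0.98 and 0.96). The higher members included the receptors FZD1 and FZD7, the Dickkopf genes DKK1 and DKK3 and the feedback gene AXIN2. Of these, DKK1 was 0.533 TPM with control siRNA and reached the mean of 1 TPM only through the XPR1-siRNA library. The 3 lower ones were the receptor FZD8, the ligand WNT5A and the scaffold AXIN1. For 23 of the 29 members the counting interval of the ratio left out equality. The same share over all protein-coding genes is not given here. With both the 1.5-fold threshold and this interval required, 14 members were higher and 3 lower (background 20.4% and 10.9%).

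**Figure D1:**
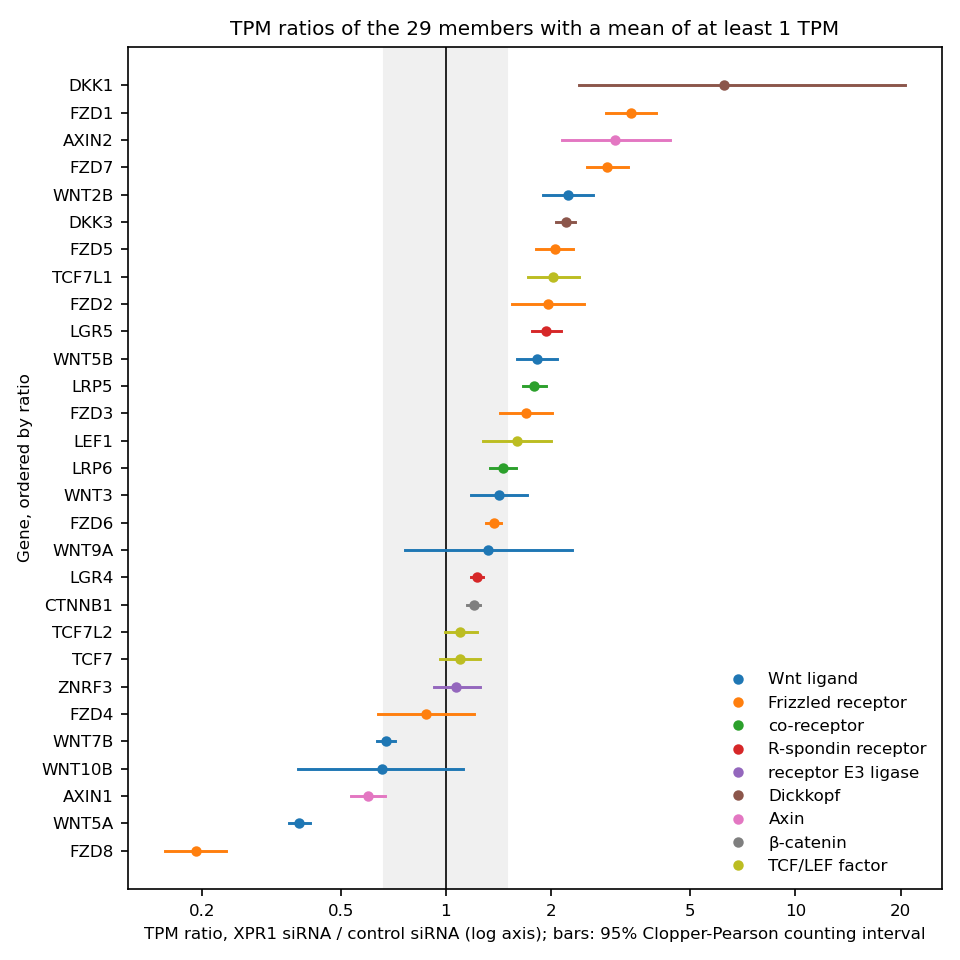
Ratio of TPM, XPR1-siRNA over control library, on a log axis for the 29 members with a mean of at least 1 TPM. Points are the ratios, bars are 95% counting intervals, colours mark roles, and the grey band spans 1.5-fold of the plain TPM ratio in either direction. FZD8 lies lowest at 0.193 and DKK1 highest at 6.24 with the widest bar. WNT10B lies just outside the band but within 1.5-fold once 1 TPM is added.

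Among the ligands, WNT5A was lower and its close paralog WNT5B higher. WNT5A (chromosome 3, 55465715 to 55490539, minus strand, GRCh38), the best known ligand of β-catenin-independent signalling, was 95.1 TPM with control siRNA and 36.2 TPM with XPR1 siRNA. That is 2.62-fold lower (2.45 to 2.82, from 2968 and 1088 reads), at percentile 2.42 of the protein-coding genes. WNT5B (chromosome 12, 1529891 to 1647243, plus strand) was 19.7 and 35.8 TPM, 1.82-fold higher (1.60 to 2.08). WNT5A thus stood at 4.83 times the level of WNT5B with control siRNA and at 1.01 times with XPR1 siRNA.

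WNT7B, which signals through β-catenin in epithelia, was the highest ligand in both libraries. It was 130.1 and 87.7 TPM, a ratio of 0.674 (0.635 to 0.716) that fell short of the 1.5-fold threshold on the log2(TPM + 1) scale. Its difference of -0.56 passed that threshold as lower under each of the 3 other scalings (-0.61 to -0.68). WNT2B was 4.17 and 9.30 TPM, 2.23-fold higher (1.90 to 2.63). Of its exonic bases 21.2% overlap ST7L on the other strand (4.71 and 3.83 TPM), and the library kit does not mark strand. WNT3 was 10.8 and 15.3 TPM, and WNT9A 1.54 and 2.03 TPM. WNT10B was 3.46 and 2.27 TPM and counted as lower only with a pseudocount of 0.1 (-0.59). The intervals of WNT9A (0.765 to 2.30) and WNT10B (0.377 to 1.12) held equality. In all, 2 of the 7 ligands at this level were higher (28.6%, background 20.7%), 1 was lower (14.3%, background 11.1%) and 4 lay between.

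The other 12 ligands were under the level compared. WNT1, WNT2, WNT3A, WNT7A, WNT8A and WNT9B were listed at 0 in both libraries, which for WNT3A allows up to 0.242 and 0.252 TPM. WNT4, WNT6, WNT8B, WNT10A, WNT11 and WNT16 had at most 8 reads in a library. WNT4 had 8 reads with control and 2 with XPR1 siRNA, a difference not detectable at this depth (ratio 0.260, 0.0269 to 1.30).

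Added over all 19 ligands, the Wnt transcripts came to 267 TPM with control siRNA and 189 TPM with XPR1 siRNA. WNT7B and WNT5A made up most of both sums. The ligands other than these came to 41.5 and 65.4 TPM, or 15.6% and 34.6% of the sum. WNT7B held 48.8% and 46.3%, WNT5A 35.7% and 19.1%, and WNT5B 7.38% and 18.9%. The receptor sum moved the other way, with 245 TPM over the 10 Frizzled genes under control siRNA and 349.6 TPM under XPR1 siRNA.

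**Figure D2:**
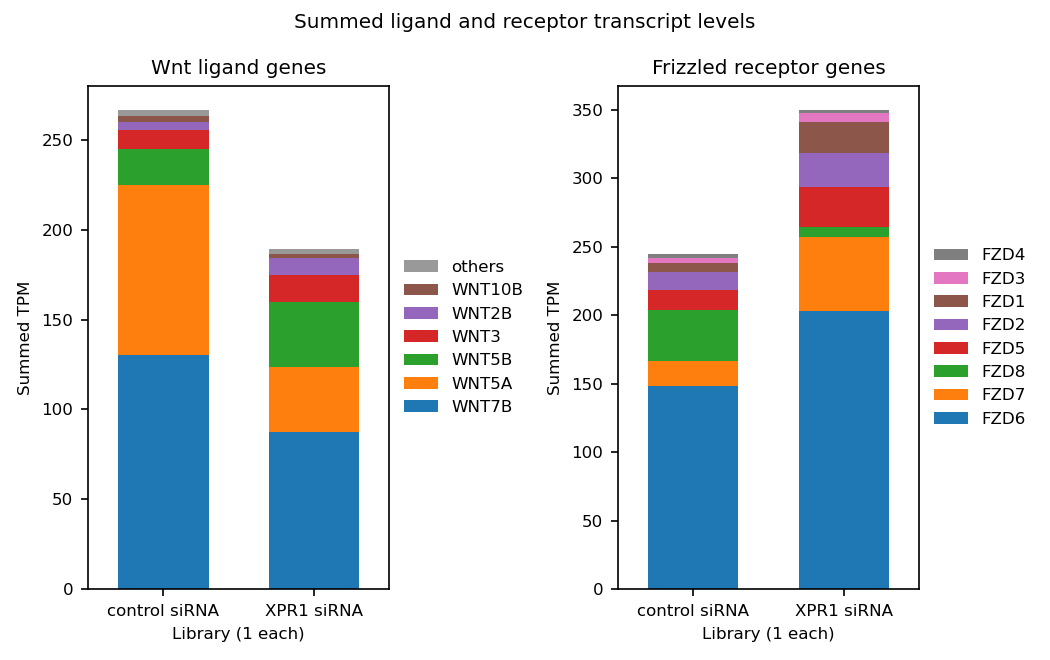
Summed TPM of the Wnt ligand genes (left) and the Frizzled receptor genes (right) in each library, stacked by gene, with 1 library per bar and no error. The ligand bar is lower in the XPR1-siRNA library (189 against 267 TPM), with a smaller WNT5A segment. The receptor bar is higher (349.6 against 245 TPM), with a smaller FZD8 segment and larger FZD6 and FZD7 segments.

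Of the 10 Frizzled receptors 8 had a mean of at least 1 TPM. Among these 5 were higher (62.5%, background 20.7%), 1 was lower (12.5%, background 11.1%) and 2 lay between. FZD9 and FZD10 were listed at 0 in both libraries. By protein sequence the family falls into 4 classes, and the class of FZD1, FZD2 and FZD7 was higher throughout. FZD1 (chromosome 7, 91264364 to 91271326, plus strand) was 6.60 and 22.3 TPM, 3.38-fold higher (2.87 to 3.99). FZD7 (chromosome 2, 202034587 to 202038445, plus strand) was 18.6 and 53.9 TPM, 2.90-fold higher (2.54 to 3.31). FZD2 (chromosome 17, 44557459 to 44559570, plus strand) was 12.7 and 24.8 TPM, 1.96-fold higher (1.55 to 2.48). Together these receptors held 15.5% of the Frizzled sum with control siRNA and 28.9% with XPR1 siRNA. They resemble each other, but at most 2.67% of the 50-base stretches in any of these transcripts also occur in another gene, so few reads of that length could be shared.

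The class of FZD5 and FZD8 split. FZD8 (chromosome 10, 35638249 to 35642278, minus strand) was 37.5 TPM with control siRNA and 7.21 TPM with XPR1 siRNA, 5.19-fold lower (4.26 to 6.38, from 637 and 118 reads). Among the protein-coding genes that places it at percentile 0.727. FZD5 (chromosome 2, 207762586 to 207769563, minus strand) was 14.4 and 29.5 TPM, 2.05-fold higher (1.81 to 2.31). The level of FZD8 was 2.60 times that of FZD5 with control siRNA and 0.244 times with XPR1 siRNA. FZD8 went from the eighth highest of the 51 members to rank 23.

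FZD6, with FZD3 in the third class and known mainly from planar polarity, was the highest of all 51 members in both libraries. It was 148 and 203 TPM, a ratio of 1.37 (1.30 to 1.44), and held 60.5% and 58.0% of the Frizzled sum. FZD3 was 3.83 and 6.50 TPM, 1.70-fold higher (1.43 to 2.01). Its difference of 0.63 was under the threshold with median-of-ratios scaling (0.55), trimmed-mean scaling (0.53) and a pseudocount of 5 (0.38). FZD4, the receptor of norrin and the expressed member of the fourth class, was 2.92 and 2.57 TPM, with an interval that held equality (0.641 to 1.20). PRSS23, which overlaps 18.9% of the exonic bases of FZD4 on the other strand, was 9.71 and 79.8 TPM. Each of FZD1, FZD2, FZD7, FZD8, FZD9 and FZD10 is annotated with 1 exon, so spliced and unspliced transcripts cannot be told apart for them.

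The co-receptors were higher or close to the threshold. LRP5 was 38.3 and 68.7 TPM, 1.79-fold higher (1.66 to 1.94), and LRP6 was 20.4 and 29.7 TPM, a ratio of 1.46 (1.34 to 1.59). LGR5, a receptor of the Wnt-enhancing R-spondins and a known β-catenin target, was 28.7 and 55.6 TPM, 1.93-fold higher (1.76 to 2.13). Its relative LGR4 was far higher in level, at 145 and 179 TPM, with a ratio of 1.23 (1.18 to 1.28). Relative to LGR5 its level was 5.06 times as high with control siRNA and 3.22 times with XPR1 siRNA. Of the membrane E3 ligases that remove Frizzled from the surface and are held back by R-spondin, ZNRF3 was 11.7 and 12.5 TPM. Its ratio of 1.07 had an interval that held equality (0.922 to 1.25), and its difference of 0.09 turned to -0.02 under trimmed-mean scaling. RNF43 was listed at 0 in both libraries. Of its exonic bases 73.9% are shared with other annotated genes, mainly ENSG00000285897 on the same strand (0.0407 and 0.0423 TPM), and how such reads were counted is unknown here. The R-spondin genes RSPO1, RSPO2 and RSPO4 were listed at 0 in both libraries, and RSPO3 had 3 reads in the control library and none in the other.

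**Figure D3:**
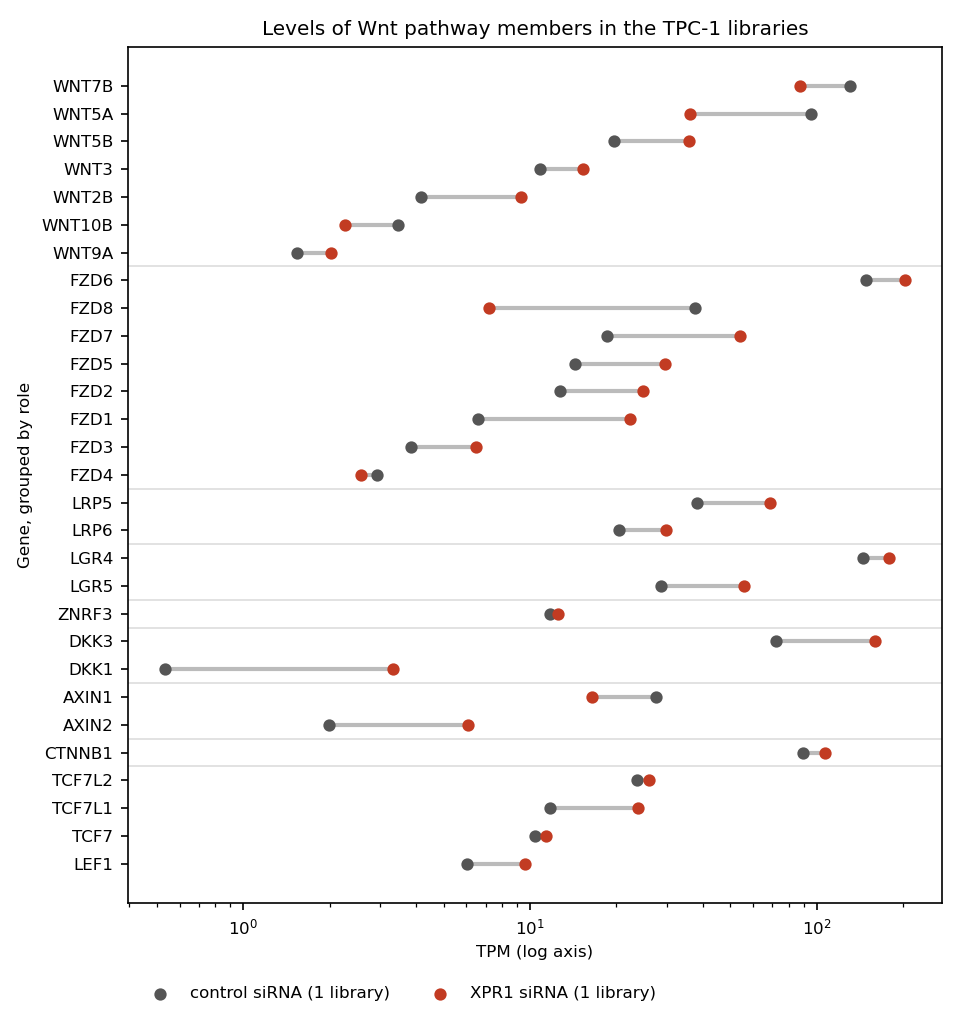
TPM on a log axis for the 29 members with a mean of at least 1 TPM, grouped by role from ligands (top) to transcription factors (bottom), with 1 point per library joined by a grey line. WNT7B, WNT5A, WNT10B, FZD8, FZD4 and AXIN1 lie to the left in the XPR1-siRNA library, and the other 23 members lie to the right.

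Among the secreted antagonists, the Dickkopf genes with detectable levels were higher and the SFRP genes were near 0. DKK3, a divergent Dickkopf that does not act like DKK1 on LRP6, was 72.3 and 159 TPM, 2.20-fold higher (2.07 to 2.34). Its locus is 11963106 to 12009769 on the minus strand of chromosome 11. DKK1, which blocks LRP5 and LRP6, was 0.533 and 3.33 TPM, 6.24-fold higher (2.40 to 20.6), from 5 and 30 reads. It reached the level compared only through the XPR1-siRNA library. Its locus is 52314296 to 52318042 on the plus strand of chromosome 10. DKK4 was listed at 0 in both libraries, and DKK2 had 1 read in the control library and none in the other. SFRP1 and SFRP2 were listed at 0 in both libraries. SFRP4 had 1 and 5 reads and SFRP5 0 and 1, so no difference was detectable for them at this depth.

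The 250 bases before the annotated RefSeq start (GRCh38.p14) are shown 5′ to 3′ on the gene's strand for DKK1, for the paralogs FZD5 and FZD8 that differed in direction, and for WNT5A. Capitals mark TCF/LEF words (CTTTGAA or CTTTGAT or CTTTGTA or CTTTGTT) and GC boxes (GGGCGG), read on both strands. Words of the first kind overlap none of the second here, and neighbouring GC boxes may overlap each other.
DKK1, plus strand, chr10:52314031-52314280: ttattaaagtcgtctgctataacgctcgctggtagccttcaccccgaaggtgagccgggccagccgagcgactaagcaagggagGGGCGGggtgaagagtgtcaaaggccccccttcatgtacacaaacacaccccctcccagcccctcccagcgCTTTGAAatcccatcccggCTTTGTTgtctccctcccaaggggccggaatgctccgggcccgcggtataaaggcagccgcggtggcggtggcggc
FZD5, minus strand, chr2:207769907-207770156: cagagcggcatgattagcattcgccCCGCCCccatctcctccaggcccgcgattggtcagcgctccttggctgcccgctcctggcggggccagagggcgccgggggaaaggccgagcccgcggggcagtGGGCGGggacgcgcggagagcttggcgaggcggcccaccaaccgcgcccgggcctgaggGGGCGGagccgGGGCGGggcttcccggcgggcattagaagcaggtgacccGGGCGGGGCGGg
FZD8, minus strand, chr10:35642297-35642546: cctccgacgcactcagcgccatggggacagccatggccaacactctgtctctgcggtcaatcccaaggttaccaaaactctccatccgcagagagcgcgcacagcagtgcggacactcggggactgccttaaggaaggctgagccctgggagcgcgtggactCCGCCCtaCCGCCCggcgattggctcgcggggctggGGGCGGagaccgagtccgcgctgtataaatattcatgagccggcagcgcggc
WNT5A, minus strand, the downstream of its RefSeq starts, chr3:55481399-55481648: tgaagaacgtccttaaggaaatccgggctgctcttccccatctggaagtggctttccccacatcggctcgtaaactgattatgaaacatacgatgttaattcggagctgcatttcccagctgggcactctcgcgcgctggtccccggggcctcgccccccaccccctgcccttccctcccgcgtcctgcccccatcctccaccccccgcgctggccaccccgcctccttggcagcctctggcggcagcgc
The DKK1 window holds 2 TCF/LEF words, whose first bases lie 95 and 76 bases before the start, and 1 GC box. FZD5 has 6 GC boxes, FZD8 has 3 and neither has a TCF/LEF word, and the WNT5A window has no word of either kind. WNT5A has a further RefSeq start with 1 GC box and no TCF/LEF word before it. Over all 35116 windows of this length 12.0% hold a TCF/LEF word and 42.6% a GC box. Of the 41 windows matched to 34 of the 51 members, 3 (7.32%) hold a TCF/LEF word and 30 (73.2%) a GC box. The 3 windows belong to DKK1, TCF7 and TCF7L2. AXIN2, LGR5, FZD7 and DKK3 are among the 17 members not matched. These matches are letters only, and which start TPC-1 cells use was not tested.

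The Axin scaffolds moved in opposite directions. AXIN1, the constitutive scaffold of the destruction complex, was 27.4 and 16.4 TPM, a ratio of 0.598 (0.535 to 0.669). Its locus is 287440 to 352673 on the minus strand of chromosome 16. AXIN2, the inducible form whose transcript is widely used as a readout of β-catenin, was 1.99 and 6.08 TPM, 3.05-fold higher (2.15 to 4.39, from 44 and 129 reads). Its locus is 65528563 to 65561647 on the minus strand of chromosome 17, and 25.2% of its exonic bases overlap a further annotated gene that was listed at 0. AXIN1 stood at 13.8 times the level of AXIN2 with control siRNA and at 2.70 times with XPR1 siRNA, and the sum of both was 29.4 and 22.5 TPM. NKD1, a feedback inhibitor of Dishevelled, had 0 and 3 reads, which is at the limit that a count of 0 allows.

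β-Catenin itself lay within 1.5-fold, as did 2 of the 4 TCF/LEF factors, and the other 2 were higher. CTNNB1 (chromosome 3, 41194741 to 41260096, plus strand) was 89.2 and 107 TPM, a ratio of 1.20 (1.15 to 1.25). Among the TCF/LEF factors, TCF7L1, which often acts as a repressor, was 11.7 and 23.7 TPM, 2.03-fold higher (1.72 to 2.40). LEF1 was 6.01 and 9.60 TPM, 1.60-fold higher (1.28 to 2.00). Its difference of 0.60 was under the threshold with each of the 3 other scalings (0.49 to 0.55) and with a pseudocount of 5 (0.41). TCF7L2, the highest of the 4 factors in both libraries, was 23.6 and 26.0 TPM (ratio 1.10, 0.991 to 1.23), and TCF7 was 10.4 and 11.4 TPM (ratio 1.10, 0.960 to 1.25). TCF7L1 held 22.6% of the TCF/LEF sum with control siRNA and 33.5% with XPR1 siRNA, and TCF7L2 45.7% and 36.8%.

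Of 124 other genes of the pathway in the table, in 5 lists by role, 85 had a mean of at least 1 TPM. Of these 24 (28.2%) were higher and 11 (12.9%) lower, beside the background of 20.7% and 11.1%, and their median was 0.12. This split depended on the scaling, since trimmed-mean scaling gave 21 higher and 16 lower. The background moved the same way, to 16.5% higher and 14.5% lower. The lists differed in their medians, from 0.82 for secretion and extracellular factors to -0.28 for known targets.

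In the list of secretion and extracellular factors, 5 of 7 genes (71.4%, background 20.7%) were higher and none was lower. Of the higher genes, ADGRA2 and DKKL1 (0.649 and 1.69 TPM) were under 1 TPM with control siRNA. They reached the mean of 1 TPM only through the XPR1-siRNA library, so their being counted as higher carries little weight. PORCN, the acyltransferase that attaches the lipid to Wnt proteins, was 5.04 and 12.4 TPM, 2.47-fold higher (1.83 to 3.36). The Wnt carrier WLS was 21.7 and 32.6 TPM, close to the threshold. RECK was 6.34 and 19.0 TPM, and ADGRA2, with which it forms a co-receptor for WNT7 ligands, was 0.403 and 2.16 TPM, from 12 and 62 reads. KREMEN1, a receptor of DKK1, was 1.81-fold higher (1.62 to 2.01), and DKKL1 rested on 4 and 10 reads (0.749 to 11.4).

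Of 14 other receptors and polarity genes 7 were higher (background 20.7%) and 2 lower (14.3%, background 11.1%), with a median of 0.56. VANGL2 was 2.95-fold higher (2.44 to 3.56), and CELSR2 7.17 and 19.9 TPM, 2.78-fold higher (2.47 to 3.14). Both are core proteins of planar polarity. Of the receptors known to bind WNT5A, ROR2 was near 0, at 0.0403 and 0.293 TPM, from 1 and 7 reads (0.935 to 328). ROR1 and RYK differed in direction. ROR1 was 20.6 and 37.6 TPM, 1.82-fold higher (1.64 to 2.02), and RYK was 53.9 and 34.9 TPM, 1.55-fold lower (1.43 to 1.67). The other lower gene was PRICKLE2, at 9.28 and 5.16 TPM.

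Of 24 genes around Dishevelled and the destruction complex, with a median of -0.06, 19 lay within 1.5-fold. Higher were 2 (8.33%, background 20.7%) and lower 3 (12.5%, background 11.1%). APC was 17.4 and 20.9 TPM, GSK3A 42.0 and 38.9 TPM, GSK3B 60.0 and 55.6 TPM and CSNK1A1 99.4 and 70.7 TPM. The lower genes were CSNK1E, DVL1 and RNF146. CSNK1E, a casein kinase that acts on Dishevelled, was 84.4 and 39.0 TPM, 2.16-fold lower (2.01 to 2.33). DVL1 was 114 and 59.3 TPM, 1.92-fold lower (1.77 to 2.08), whereas DVL2 had a ratio of 1.29 (1.14 to 1.45) and DVL3 was 90.5 and 98.4 TPM.

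Of 21 nuclear cofactors 4 (19.0%) were higher and 1 (4.76%) was lower, with a median of 0.19. The higher share lay near the background of 20.7%, and the lower share rested on 1 gene (background 11.1%). BCL9L, a β-catenin coactivator, was 96.0 TPM with control and 47.5 TPM with XPR1 siRNA, 2.02-fold lower (1.92 to 2.13). Its paralog BCL9 was 32.3 and 52.4 TPM, 1.62-fold higher (1.49 to 1.77). The kinase TNIK was 12.0 and 26.0 TPM, 2.17-fold higher (1.93 to 2.44).

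Of 19 known targets outside the members 6 (31.6%) were higher and 5 (26.3%) lower, beside the background of 20.7% and 11.1%. Among the higher were BMP4 (5.97 and 19.9 TPM), the transcription factor SOX4 (36.0 and 74.5 TPM) and BIRC5 (25.8 and 62.7 TPM), which is also a mitotic gene. TNFRSF19 was 0.0463 and 2.65 TPM, with 1 read in the control library, and reached the level compared only through the XPR1-siRNA library. Among the lower were the adhesion receptor CD44 (2255 and 699 TPM), FOSL1 (886 and 375 TPM), MYC (363 and 163 TPM) and PLAUR (91.6 and 45.1 TPM). These 4 are also known targets of other pathways, such as ERK and AP-1. Other pathways that act on the higher targets are not listed here. CCND1 was 497 and 349 TPM, a ratio of 0.703 (0.682 to 0.725), within 1.5-fold. In all, 8 of the 19 targets were above control and 11 below. Which pathway set the level of any target, higher or lower, was not tested. SP5, ASCL2 and APCDD1, further β-catenin targets, were listed at 0 in both libraries.

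**Figure D4:**
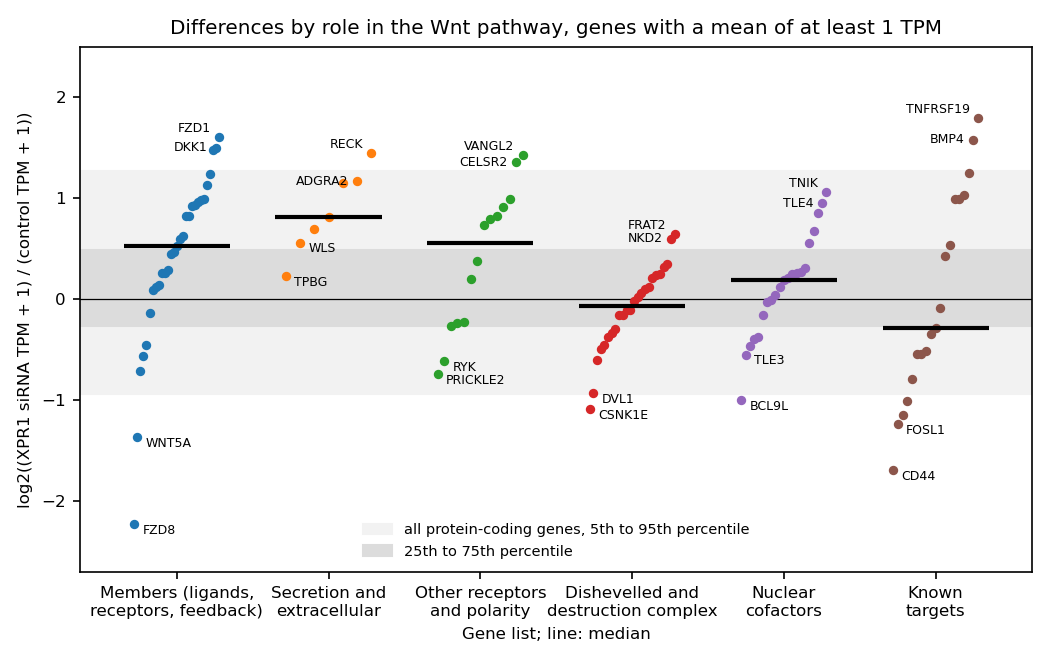
Difference on the log2(TPM + 1) scale for each gene with a mean of at least 1 TPM, by role in the pathway. Points are genes, black lines are list medians, grey bands span the 5th to 95th and the 25th to 75th percentiles of all protein-coding genes at that level, and the outermost genes of each list are named. Medians run from 0.82 for secretion and extracellular factors to -0.28 for known targets that are not members, and FZD8 at -2.23 is the lowest point.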

How the data were processed

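RNA from 2 TPC-1 libraries, 1 with a control siRNA and 1 with an siRNA against XPR1, was made into libraries (TruSeq RNA Library Prep Kit v2) per the labels' protocols. The submitters' processing notes name FastQC, MultiQC, Trimmomatic 0.38, featureCounts 2.0.0 and GRCh38. Aligner and annotation release: not given in the sources used here. Values were deposited by the authors as TPM, and each column sums to 1000000.

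Symbols came from a table that matched 58472 of 58884 identifiers, otherwise from GENCODE 29, which also gave types, coordinates and exon lengths. The product of TPM and exon length falls on whole multiples of the worth of 1 read. Within 0.02 of a whole number lay 93.6% and 93.7% of genes with up to 10 reads (4% by chance), and 57.3% of protein-coding genes above 0 in each library. Of the 29 members compared, 9 had whole reads in both libraries, and the intervals of the other 20 are approximate. For 2000 exonic bases, a single read equals 0.118 and 0.123 TPM, and a count of 0 (3 reads) allows 0.355 and 0.369 TPM. The reads carry no molecular identifiers, so intervals and floors cover counting error only.

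The comparison was log2(TPM + 1), without a test. Every member with a mean of at least 1 TPM is named, and of the other lists the genes at least 2-fold apart or needed by role (further ones were chosen after their values were seen). Members and lists were chosen with earlier results of these data known. Alternatives were other pseudocounts, floors, scalings, the recovered reads, a 2-fold threshold and the counting interval. The read recovery was tested on data simulated from whole reads with the same exon lengths. That test does not cover genes whose reads do not come out whole. Python 3.11.15, numpy 2.4.6, pandas 2.3.3, scipy 1.17.1 and matplotlib 3.10.9 were used.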

Additional observations from a re-analysis of the deposited data

How the results depend on the processing

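No paired analysis was possible because there is 1 library per siRNA, so none could be left out either. A 2-fold threshold on the log2(TPM + 1) scale gave 5 members higher in place of 14. It gave 10 other pathway genes higher and 5 lower in place of 24 and 11. With a pseudocount of 5 the difference of XPR1 was -2.10 in place of -2.67. Under the other alternatives the counts of members ran from 12 to 14 higher and from 3 to 4 lower, the median of the members from 0.26 with no floor to 0.56 from 5 TPM, and each of the 29 members kept its sign except ZNRF3. Of 174 member values under 6 alternatives, 17 moved by more than the distance from the middle of their log2 counting interval to its end. The log2 scaling factor between the libraries was 0.099 by median-of-ratios, 0.050 by upper-quartile and 0.118 by trimmed-mean scaling, and low genes moved by less. FZD3 and LEF1 were no longer counted as higher with median-of-ratios or trimmed-mean scaling or a pseudocount of 5, nor LEF1 with upper-quartile scaling. WNT7B was counted as lower under all 3 scalings, and WNT10B with a pseudocount of 0.1. Trimmed-mean scaling left 12 members higher and 4 lower, and brought the share of higher genes among those past the threshold from 68.6% to 56.8% for the other pathway genes and from 65.1% to 53.2% for protein-coding genes. DKK1, with 5 reads in the control library, had the widest range, from 0.59 with a pseudocount of 5 to 2.44 with 0.1.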
